A study of Mus musculus with 6 samples.

Results

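The 10 genes described here encode the proteins that bind, stabilize and dismantle neuronal microtubules and the neurofilaments that lie beside them: *Map1a*, *Map1b*, *Map2*, *Mapt*, *Map6*, *Dcx*, *Stmn1*, *Stmn2*, *Nefl* and *Nefm*. They were chosen by name, 10 of the 31053 genes listed, by matching the Ensembl gene identifiers to mouse symbols. The samples were primary cortical neurons from E18 C57BL/6J embryos, wild type by their labels. An adeno-associated virus delivered a Tet-On Ribo-STAMP construct in which a synapsin promoter drove the transactivator, so expression was directed to neurons. Ribo-STAMP fuses rAPOBEC1, a cytidine deaminase that turns C into U in RNA, to a ribosomal protein, so that edits accumulate on mRNAs that ribosomes occupy. Both constructs use a protein of the large ribosomal subunit: mouse Rpl10a in RPL10A-STAMP and mouse Rpl22 in RPL22-STAMP. All 6 samples received floxuridine at DIV 3, which limits dividing cells, were infected at DIV 6, were induced with Dox at 1 µg per ml for 48 h and were collected at DIV 14. There were 3 libraries per variant. The sources differ on whether these are biological or technical replicates, so the p values rest on spread between these libraries, which may be technical. No library without a construct was analysed here, so the background of C-to-U calls is not known for these genes.

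Microtubules are polymers of tubulin that carry transport in axons and dendrites. Structural microtubule-associated proteins (MAPs) bind along the polymer and stabilize it: MAP2 is best known from dendrites and tau, the product of *Mapt*, from axons. Stathmins bind free tubulin and favour disassembly, and doublecortin, the product of *Dcx*, stabilizes microtubules in migrating and immature neurons. Neurofilaments are intermediate filaments that set the calibre of axons.

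The measurement is edits per read (EPR), the number of C-to-U edits on a gene divided by the reads on its exons, as 1 ratio per gene and library. The reads behind each ratio are unknown, so no counting error is given, and a value of 0 can mean no edits or no reads. Edited genes are those with a value above 0. All 10 genes were edited in all 6 libraries, as were 8046 genes in all. Between 9892 and 11195 genes were edited per library, with a median EPR between 0.00907 and 0.0154. For 19 genes, none of them among the 10, EPR was above 1 in all 6 libraries, and the reason was not tested. Any 2 libraries held the same EPR, to within 1e-12, for 1 to 11 of the 8880 to 9922 genes edited in both, so no file repeated another. The 7 neuronal markers examined (*Rbfox3*, *Snap25*, *Syt1*, *Syn1*, *Slc17a7*, *Gad1*, *Gad2*) were edited in every library, with a summed EPR of 0.162 to 0.196 with RPL10A-STAMP and 0.161 to 0.189 with RPL22-STAMP. Of 5 astrocyte markers, 4 or 5 were edited in each library, with a summed EPR of 0.140 to 0.238 and 0.109 to 0.197. *Gfap*, *Aqp4*, *Slc1a3* and *Gja1* were edited in all 6 libraries and *Aldh1l1* in 4. The filament genes of progenitors or glia, *Vim* and *Nes*, were edited in all 6 libraries, at 0.0205 to 0.0362 and 0.00169 to 0.00389. Of 7 markers of the oligodendrocyte lineage, 2 to 4 were edited in each library, with a summed EPR of 0.0175 to 0.115 and 0.0762 to 0.0957. Of 5 microglial markers, *Csf1r*, *P2ry12* and *Tmem119* were at 0 in every library, *Cx3cr1* was edited in RPL10A-STAMP replicate 2 (0.0143) and RPL22-STAMP replicate 2 (0.0364), and *C1qa* in RPL22-STAMP replicate 3 (0.0714). EPR is a ratio within a gene and gives no share of cells. The sums run over lists of unlike size and do not compare cell types. The part of glial cells in the values below was not tested.

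rAPOBEC1 is known to prefer a C with A or U beside it. The files hold no edit positions, so the sequences shown here are not edit sites: for 5 genes that the comparisons turn on, each is the stretch of 30 coding bases richest in C between A or T, with those Cs in capitals, to show what the deaminase can meet in each mRNA. They are written 5′ to 3′ on the mRNA's strand, from the transcripts of GENCODE mouse release 21, with positions in GRCm38. The *Map2* stretch is at chr1:66380542-66380571 on the plus strand, that of *Mapt* at chr11:104305338-104305367 on the plus strand, that of *Map1b* at chr13:99435578-99435607 on the minus strand, that of *Nefl* at chr14:68085974-68086003 on the plus strand and that of *Nefm* at chr14:68121296-68121325 on the minus strand.
Map2: gcaccaCaCtggaCatCagcctCaCtCaCa
Mapt: acctCtcctaaaCacgtCtCttCtgtCaCa
Map1b: aCagaCaCaatCtccaagaCttCatCaaCa
Nefl: gaCaCaatCaaCaaaCtggagaatgagctg
Nefm: ctCtgtaCaCaCaccgaCagccctCagtCa
Over whole transcripts, *Map2* had 7.27 such Cs per 100 bases and *Map1b* 7.29, above the median of 6.96 over tested genes. *Mapt*, with 5.29, and *Nefm*, with 5.28, were both below the 5th percentile, at 4.83% and 4.74% of tested genes. *Nefl* had 6.45. These counts use 1 transcript per gene, that of greatest coding length, which for *Mapt* is annotated almost without UTRs. For *Map2* that transcript has a 3′ UTR of 184 bases and a length of 6258 bases, beside 16449 annotated exon bases.

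EPR spanned 0.00679 to 0.0621 over the 10 genes and 6 libraries. *Nefl* was the highest in every library and stood between the 89.4th and 93.6th percentile of the edited genes of its library. With RPL10A-STAMP the order of mean EPR was *Nefl*, *Map2*, *Stmn2*, *Stmn1*, *Map1b*, *Dcx*, *Mapt*, *Map6*, *Nefm* and *Map1a*. With RPL22-STAMP it was *Nefl*, *Stmn2*, *Stmn1*, *Mapt*, *Map2*, *Map1b*, *Nefm*, *Dcx*, *Map6* and *Map1a*. Several neighbours did not differ by more than the larger of their SDs: *Map2*, *Stmn2*, *Stmn1* and *Map1b* at the top and *Map6*, *Nefm* and *Map1a* at the bottom with RPL10A-STAMP, and *Stmn1* with *Mapt* and the 5 genes from *Map1b* down with RPL22-STAMP. Of the 45 pairs of these genes, 30 kept the same order in all 6 libraries, 12 had a mixed order, and 3 had one order in every RPL10A-STAMP library and the opposite order in every RPL22-STAMP library. Those 3 pairs were *Mapt* against *Map2*, *Map1b* and *Dcx*, and in each *Mapt* was the lower gene with RPL10A-STAMP and the higher with RPL22-STAMP. The share of turned pairs over all tested genes was not computed, so these counts have no background. Over genes edited in all 6 libraries, Spearman correlations were 0.669 to 0.809 between libraries of the same variant and 0.516 to 0.575 between variants.

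**Figure D1:**
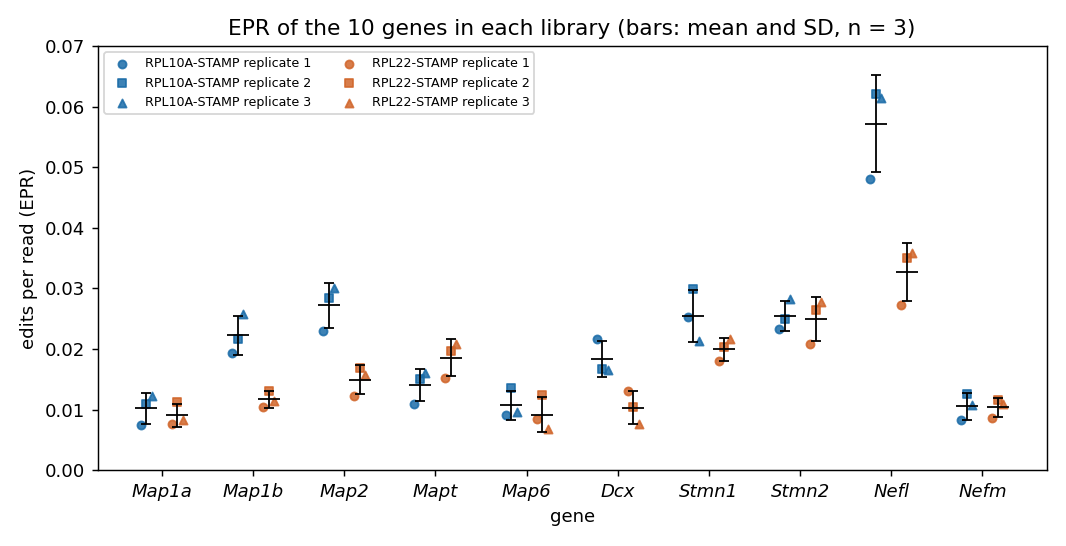
EPR (edits per read, y axis) of each gene (x axis) in the 3 RPL10A-STAMP (blue) and 3 RPL22-STAMP (orange) libraries, with black bars for the mean and SD of 3 libraries. *Nefl* is the highest gene in every library, and *Map1b*, *Map2*, *Dcx* and *Nefl* have no overlap between the variants.

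The comparison of the variants asks whether these mRNAs rank differently with the construct. Per the study's methods, Rpl10a was joined to the C terminus of APOBEC1 and Rpl22 to its N terminus. The ribosomal protein and the orientation of the fusion therefore cannot be told apart here. EPR was compared as deposited and, across genes, after each library was scaled to its median gene and fitted with limma on log2(EPR + 0.01), so that a fold change is relative to the median gene and understates the change of genes with low EPR. Without that scaling the median gene was 0.18 higher with RPL10A-STAMP on the log2 scale. In limma the variance of each gene is moderated by the variances of all tested genes. Its standard errors, intervals and p values therefore do not measure a gene's own spread alone. Of the 10 genes, 1 passed an adjusted p of 0.05: *Mapt*, lower with RPL10A-STAMP. The background was 14.3% of 8046 tested genes in either direction (8.51% with RPL10A-STAMP higher, 5.77% with RPL22-STAMP higher), so 1 of 10 was near the share of all tested genes. The median log2 fold change of the 10 genes was -0.05, beside -0.01 over all tested genes. For EPR as deposited, the variants did not overlap for 4 genes, all higher with RPL10A-STAMP, beside a background of 34.4% in either direction, 28.2% with RPL10A-STAMP higher and 6.21% with RPL22-STAMP higher. For scaled EPR they did not overlap for 6 genes, beside 37.1% of tested genes.

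**Figure D2:**
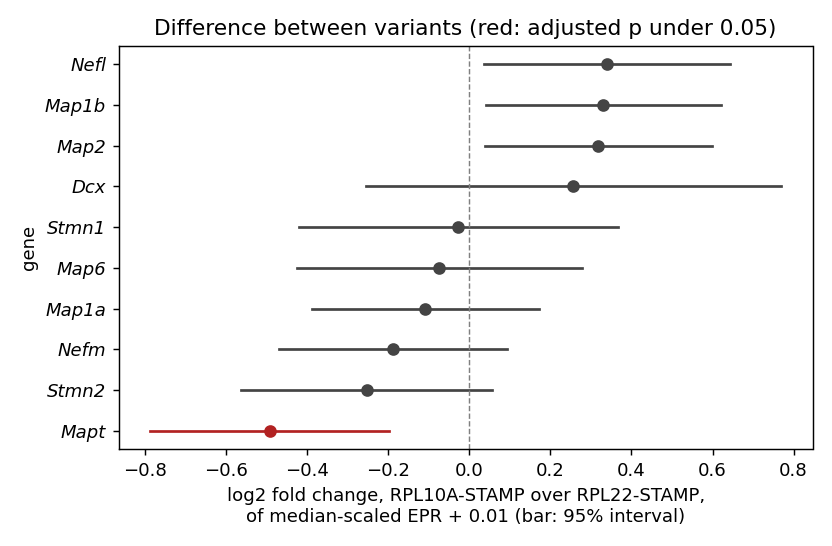
The log2 fold change between RPL10A-STAMP and RPL22-STAMP (positive: higher with RPL10A-STAMP) of median-scaled EPR + 0.01 (x axis) for each gene (y axis), with bars for the limma 95% interval, n = 3 libraries per variant. *Mapt* at -0.49 (red) is the one gene with an adjusted p under 0.05, and the intervals of *Map1b*, *Map2* and *Nefl* lie above 0 before adjustment.

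Among the 10 genes, tau mRNA was the one called lower under RPL10A-STAMP relative to the median gene. *Mapt* (ENSMUSG00000018411) spans 104231390 to 104332090 on chromosome 11 (plus strand, GRCm38). Its EPR in replicates 1, 2 and 3, the order used for every gene here, was 0.0110, 0.0150 and 0.0161 under RPL10A-STAMP and 0.0152, 0.0197 and 0.0209 under RPL22-STAMP. As deposited, the lowest RPL22-STAMP library lay below the highest RPL10A-STAMP library, and the means, 0.0140 ± 0.00268 and 0.0186 ± 0.00301 (SD, n = 3), gave p = 0.20 (exact permutation test, two-sided). Relative to the median gene the libraries did not overlap, at 0.0115 to 0.0125 against 0.0192 to 0.0233. The log2 fold change was -0.49 (standard error 0.12, limma adjusted p = 0.0417), so scaled EPR + 0.01 was 1.41-fold higher with RPL22-STAMP. In the ranking of edited genes *Mapt* moved from the 46.7th to 51.9th percentile with RPL10A-STAMP to the 72.1st to 77.0th with RPL22-STAMP. The call was kept in 4 of 18 alternatives, and the limma adjusted p ranged from 0.0357 to 0.566 over the 18. It was lost whichever library was left out (limma adjusted p from 0.0667 to 0.118), while the log2 fold change stayed between -0.54 and -0.45, and after the trend with transcript GC content was removed it stood at -0.14 on the log2 scale (limma adjusted p = 0.515).

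*Map2* and *Map1b* went the other way without passing the adjusted threshold. *Map2* (ENSMUSG00000015222), from 66175273 to 66442583 on chromosome 1 (plus strand), had an EPR of 0.0230, 0.0284 and 0.0301 under RPL10A-STAMP and 0.0122, 0.0169 and 0.0158 under RPL22-STAMP. Every RPL10A-STAMP library was above every RPL22-STAMP library, and the mean was 1.82 times as high (two-sided exact permutation test, p = 0.10, as low as 3 against 3 libraries can give). Its scaled values varied little, with a residual SD of 0.026 on the log2 scale beside a median of 0.22 over all tested genes. The log2 fold change was 0.32 (standard error 0.12, limma adjusted p = 0.119). The moderated standard error does not reflect that small SD alone.

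*Map1b* (ENSMUSG00000052727), which encodes a MAP of growing axons, lies on the minus strand of chromosome 13 from 99421446 to 99516540. Its EPR was 0.0193, 0.0216 and 0.0258 under RPL10A-STAMP and 0.0104, 0.0131 and 0.0115 under RPL22-STAMP. The RPL10A-STAMP libraries were all higher, with a mean 1.91 times as high (two-sided exact permutation test, p = 0.10) and a log2 fold change of 0.33 (standard error 0.12, limma adjusted p = 0.119). *Map1a* (ENSMUSG00000027254), the MAP1 gene of mature neurons, spans 121289600 to 121310832 on chromosome 2 (plus strand). Its EPR was 0.00741, 0.0110 and 0.0122 under RPL10A-STAMP and 0.00755, 0.0112 and 0.00835 under RPL22-STAMP. The 2 groups overlapped (two-sided exact permutation test, p = 0.70), and the log2 fold change was -0.11, with a 95% interval of -0.39 to 0.17 (limma adjusted p = 0.582).

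*Map6* (ENSMUSG00000055407), which makes microtubules resistant to cold, spans 99267447 to 99337137 on chromosome 7 (plus strand). Its EPR was 0.00905, 0.0135 and 0.00962 under RPL10A-STAMP and 0.00842, 0.0123 and 0.00679 under RPL22-STAMP. The groups overlapped, and the 95% interval of the log2 fold change, -0.43 to 0.28, holds 0 (limma adjusted p = 0.779).

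*Dcx* (ENSMUSG00000031285), on the minus strand of chromosome X from 143855842 to 143933311, had an EPR of 0.0217, 0.0168 and 0.0165 under RPL10A-STAMP and 0.0130, 0.0104 and 0.00760 under RPL22-STAMP. Each RPL10A-STAMP library was above each RPL22-STAMP library as deposited (two-sided exact permutation test, p = 0.10). Scaled to the median gene the groups overlapped, and *Dcx* had the largest residual SD of the 10 genes, 0.30 on the log2 scale. Its log2 fold change was 0.26 (standard error 0.22, limma adjusted p = 0.465). Exact copies elsewhere in the genome were sought for the transcript of greatest coding length of each gene. In that of *Dcx*, 2.24% occurs as copies of at least 50 bases, with 16019 hits of up to 68 bases. The searched transcripts of the other genes had no such copy. They do not cover all annotated exon bases, for *Mapt* 2250 of 7531.

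The stathmins were among the more highly edited genes and did not differ between the variants beyond the adjusted threshold. *Stmn1* (ENSMUSG00000028832), the stathmin of proliferating and immature cells, spans 134468320 to 134473843 on chromosome 4 (plus strand). Its EPR was 0.0252, 0.0299 and 0.0213 under RPL10A-STAMP and 0.0180, 0.0203 and 0.0217 under RPL22-STAMP, with overlap between the groups. *Stmn2* (ENSMUSG00000027500), a neuronal stathmin of growth cones, spans 8509360 to 8561606 on chromosome 3 (plus strand). It had an EPR of 0.0233, 0.0249 and 0.0282 under RPL10A-STAMP and 0.0208, 0.0265 and 0.0277 under RPL22-STAMP. The means as deposited, 0.0255 ± 0.00247 and 0.0250 ± 0.00367 (SD, n = 3), differed by less than the SD of either group (two-sided exact permutation test, p = 0.90). Relative to the median gene, *Stmn2* was higher in all 3 RPL22-STAMP libraries. The log2 fold change was -0.03 for *Stmn1* (95% interval -0.42 to 0.37, limma adjusted p = 0.931) and -0.25 for *Stmn2* (95% interval -0.56 to 0.057, limma adjusted p = 0.239).

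The 2 neurofilament genes lie on opposite strands of the same stretch of chromosome 14, *Nefl* within the annotated span of *Nefm*, and had very different EPR. *Nefl* (ENSMUSG00000022055), the light subunit on which the filament is built, lies on the plus strand from 68083863 to 68089095. Its EPR was 0.0480, 0.0621 and 0.0615 under RPL10A-STAMP and 0.0272, 0.0350 and 0.0359 under RPL22-STAMP. All RPL10A-STAMP libraries were higher (two-sided exact permutation test, p = 0.10), and the log2 fold change was 0.34 (standard error 0.13, limma adjusted p = 0.125). *Nefm* (ENSMUSG00000022054), the medium subunit, lies on the minus strand from 68082590 to 68124846. It had an EPR of 0.00823, 0.0126 and 0.0108 under RPL10A-STAMP and 0.00860, 0.0116 and 0.0109 under RPL22-STAMP. The groups overlapped as deposited (two-sided exact permutation test, p = 1.0), and the log2 fold change was -0.19 (95% interval -0.47 to 0.094, limma adjusted p = 0.329). Scaled to the median gene, *Nefm* was higher in every RPL22-STAMP library, at 0.0112 to 0.0122 against 0.00839 to 0.0103 with RPL10A-STAMP. The annotated exons of the 2 genes overlap on opposite strands, over 32.8% of the exon bases of *Nefl* and 19.2% of those of *Nefm*. Per the study's methods the libraries were made with a stranded mRNA kit, so the reads carry strand. Whether they were counted by strand is not given in the sources used here. The shared stretch may therefore carry reads of either gene, and its part in the values was not tested.

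The EPR of 4 pairs of related genes was also compared within each library. Plain ratios do not depend on the scaling between libraries, whereas the log2 ratios of EPR + 0.01 used for the tests do to some extent and were computed on EPR as deposited. *Nefl* was above *Nefm* in 6 of 6 libraries. The ratio was 5.83, 4.93 and 5.69 under RPL10A-STAMP and 3.16, 3.02 and 3.30 under RPL22-STAMP, and the mean log2 ratio of EPR + 0.01 over the 6 libraries was 1.39 ± 0.36 (SD). *Map1a* was below *Map1b* in 6 of 6 libraries, with a ratio of 0.383, 0.508 and 0.475 and of 0.724, 0.854 and 0.727, and a mean log2 ratio of -0.43 ± 0.27 (SD). An exact sign-flip test over the 6 libraries gave p = 0.0312 for both, the smallest that 6 libraries allow, and 0.0625 after Benjamini-Hochberg adjustment over the 4 pairs, so no pair passed 0.05. For *Stmn1* over *Stmn2* the ratio was 1.08, 1.20 and 0.755 under RPL10A-STAMP and 0.863, 0.766 and 0.782 under RPL22-STAMP, without a common direction (exact sign-flip test, adjusted p = 0.25).

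The dendritic and the axonal MAP exchanged places between the variants. *Map2* over *Mapt* was 2.09, 1.90 and 1.87 under RPL10A-STAMP and 0.804, 0.856 and 0.756 under RPL22-STAMP, so *Map2* was higher in every RPL10A-STAMP library and *Mapt* in every RPL22-STAMP library. On the log2 scale of EPR + 0.01 the ratio was 0.63 ± 0.019 and -0.20 ± 0.059 (SD, n = 3), a difference of 0.83. The ratio also did not overlap between the variants for *Map1a* over *Map1b*, with a difference of -0.49, and for *Nefl* over *Nefm*, with a difference of 0.64. Each of these 3 comparisons had p = 0.10 by the exact permutation test, the smallest possible, and 0.133 after adjustment over the 4 pairs. The share of all gene pairs whose ratio does not overlap was not computed. For the stathmin pair the difference of 0.21 had p = 0.40 (exact permutation test) and the groups overlapped.

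**Figure D3:**
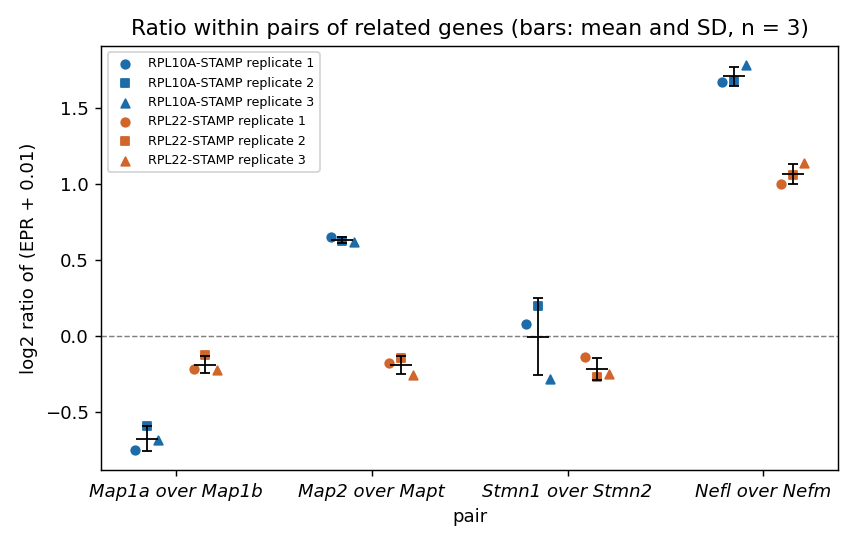
The log2 ratio of EPR + 0.01 (y axis) within 4 pairs of related genes (x axis) in each RPL10A-STAMP (blue) and RPL22-STAMP (orange) library, with black bars for the mean and SD of 3 libraries and a dashed line at equal EPR. *Map2* over *Mapt* is above 0 in all 3 RPL10A-STAMP libraries and below 0 in all 3 RPL22-STAMP libraries.

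GC content moved with the difference between the variants. Over 8039 tested genes the rank correlation of the fold change with the GC content of the exons was -0.48, given as a description across genes, which are not independent replicates. *Mapt*, *Map1a*, *Nefm* and *Map6*, with exon GC contents of 53.7%, 54.8%, 54.4% and 52.9%, were above the upper quartile of 52.3% and had log2 fold changes from -0.49 to -0.07. *Map2* and *Dcx*, with 43.6% and 39.5%, were below the median of 47.7% over tested genes and had log2 fold changes of 0.32 and 0.26. *Map1b* and *Nefl*, with 47.8% and 48.8%, were slightly above that median and had 0.33 and 0.34. The stathmins *Stmn1* and *Stmn2*, with 43.1% and 42.4%, were below the median but had -0.03 and -0.25, so they did not follow that order. With the trend of exon GC content removed, the log2 fold change of *Mapt* was -0.25 (limma adjusted p = 0.267) and that of *Map2* 0.13 (limma adjusted p = 0.549), both closer to 0. In the same setting *Stmn2* was at -0.51 (limma adjusted p = 0.0682), *Stmn1* at -0.24, *Nefl* at 0.42 and *Map1b* at 0.36, all farther from 0. The values of *Map1a*, *Nefm*, *Map6* and *Dcx* turned sign, to 0.17, 0.079, 0.15 and -0.14. Over the 10 genes the rank correlation of fold change and exon GC content was -0.32.

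**Figure D4:**
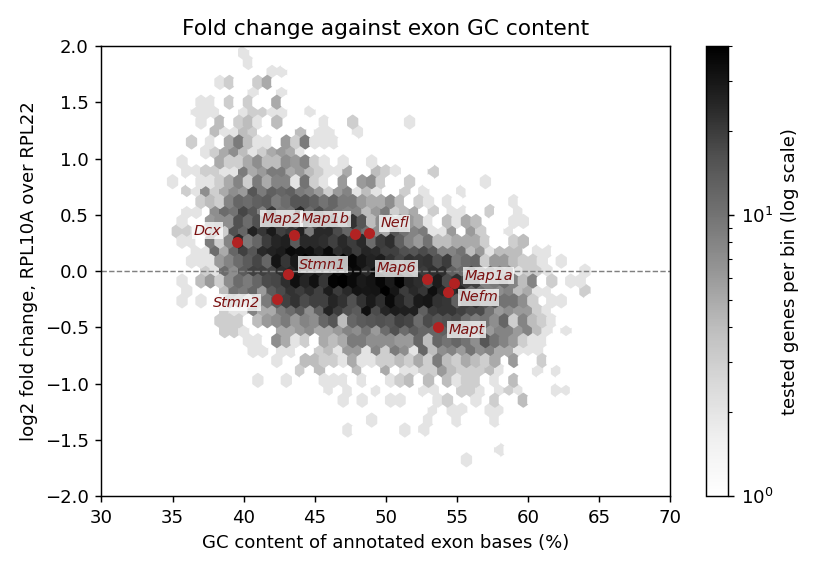
The log2 fold change between RPL10A-STAMP and RPL22-STAMP (y axis; positive where RPL10A-STAMP is higher) against the GC content of annotated exon bases in percent (x axis), with tested genes as grey bins (number per bin on a log scale) and the 10 genes in red. *Mapt* at 53.7% GC is the lowest of the 10 genes, and *Stmn2* lies below 0 at 42.4% GC.

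Other genes of microtubules and filaments were taken as 8 lists of 51 genes, of which 42 were tested and 6 passed, 2 with more edits per read under RPL10A-STAMP and 4 under RPL22-STAMP, a share of 14.3% like that of all tested genes. Of 8 tested structural MAPs, *Map9*, which organizes the spindle, and *Tppp*, which bundles microtubules, were higher with RPL10A-STAMP, with log2 fold changes of 0.75 (limma adjusted p = 0.0158) and 0.67 (limma adjusted p = 0.0175). *Map6d1*, a relative of *Map6*, was higher with RPL22-STAMP, at -0.55 (limma adjusted p = 0.0355). Within the families of the chosen genes, some relatives passed where the chosen genes did not, and the difference between relatives was not tested. Among stathmins, *Stmn3* passed at -0.70 (limma adjusted p = 0.0156), with an EPR of 0.0107, 0.0161 and 0.0152 under RPL10A-STAMP and 0.0203, 0.0238 and 0.0241 under RPL22-STAMP, and *Stmn4* was at -0.17 (limma adjusted p = 0.282). Of the kinases with a doublecortin domain, *Dclk2* passed at -0.77 (limma adjusted p = 0.0203), with 0.00470, 0.00211 and 0.00279 against 0.00835, 0.00983 and 0.0134. *Dclk1* was at -0.01 (limma adjusted p = 0.956), and *Dclk3* was at 0 in 1 library and not tested.

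Neither of the other 2 tested neuronal intermediate filaments passed: *Nefh*, the heavy neurofilament subunit, was at -0.19 (limma adjusted p = 0.297) and *Ina*, which encodes α-internexin, at -0.13 (limma adjusted p = 0.580). *Prph*, which encodes peripherin, was above 0 in 1 library. Like *Nefm*, *Nefh* had a far lower EPR than *Nefl*, with means of 0.00555 ± 0.00139 and 0.00591 ± 0.000251 (SD, n = 3) with RPL10A-STAMP and RPL22-STAMP, while *Ina* had 0.0171 ± 0.000673 and 0.0152 ± 0.000846 (SD, n = 3). No gene passed in limma among 11 end-binding proteins, 2 tested severing enzymes and 5 CRMPs, where 4, 0 and 2 genes had an unadjusted p under 0.05, as had 30.9% of all tested genes. Their median log2 fold changes were -0.052, -0.11 and -0.33. Of 10 kinases that act on MAPs, *Ttbk1*, a tau kinase, passed at -0.73 (limma adjusted p = 0.0147), with a list median of -0.24. Of 10 tested tubulins, *Tubb4a* passed at -1.09 (limma adjusted p = 0.00483), and the median was -0.25. The highest EPR in the tubulin list was 10.3, and the reason for a value above 1 was not tested.

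**Figure D5:**
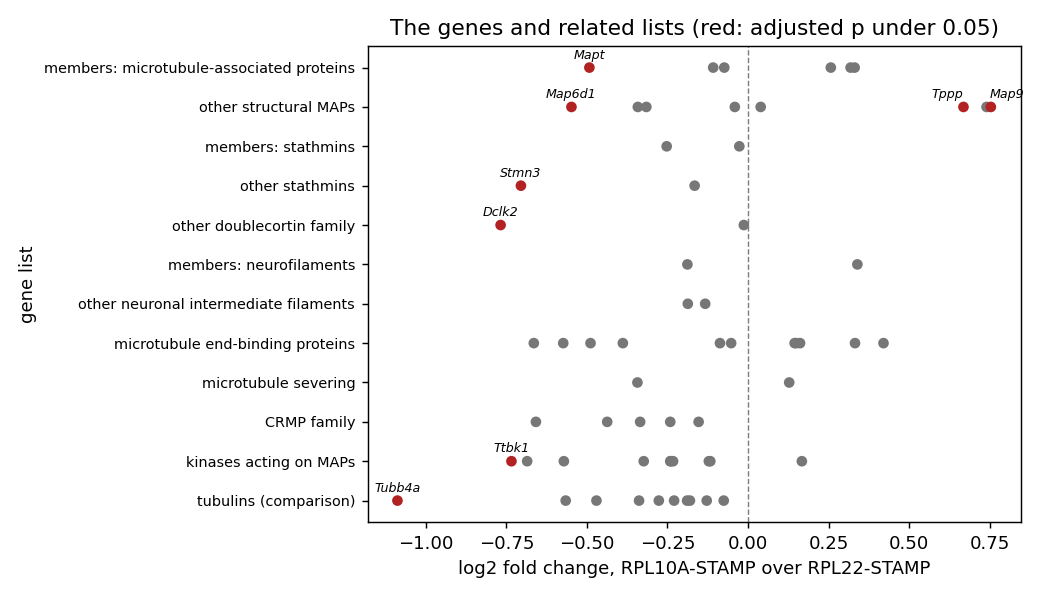
The log2 fold change between RPL10A-STAMP and RPL22-STAMP (x axis; positive where RPL10A-STAMP is higher) of each tested gene in the lists named on the y axis, with genes of adjusted p under 0.05 in red and named. The 10 genes lie between -0.49 (*Mapt*) and 0.34 (*Nefl*), inside the range of the 8 wider lists, from *Dclk2* at -0.77 to *Map9* at 0.75. The tubulins, shown for comparison, reach -1.09 (*Tubb4a*).

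The 3 genes of the whole table whose scaled log2 values over the 6 libraries were closest to those of *Mapt*, by Euclidean distance, were *Sv2a* at 0.081, *Mien1* at 0.12 and *Tub* at 0.13. *Sv2a*, which encodes a synaptic vesicle glycoprotein, had an EPR of 0.0103, 0.0147 and 0.0164 under RPL10A-STAMP and 0.0150, 0.0191 and 0.0199 under RPL22-STAMP, close to *Mapt* in every library.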

How the data were processed

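Single-end bulk RNA-seq of 6 libraries, made with a stranded mRNA kit, was used. Per the study's methods, the authors used cutadapt for trimming and STAR for alignment to mm10 (a read could have several locations), called C-to-U edits with SAILOR and counted reads with featureCounts. Their annotation is not given in the sources used here. For each gene they deposited a ratio, EPR (edits over reads), without normalization between libraries. Reads shared by related genes can move a ratio, and depth per gene is unknown.

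Identifiers were matched to GENCODE mouse release 21 (30934 of 31053 found). For the 8046 genes edited in all 6 libraries, each library was scaled to its median EPR and log2(EPR + 0.01) entered limma (3.58.1, R 4.3.3) with the variance trend on, Benjamini-Hochberg adjustment and a threshold of 0.05. The limma step was tested on simulated data. Single values and ratios were compared with two-sided exact permutation tests (20 labelings) or sign flips. The genes, pairs, lists and the filter on tested genes were chosen with earlier results of these data known. The text names all 10 genes, from each wider list up to 3 called genes with the largest fold change, every gene of the lists of other stathmins, doublecortin-family genes and neuronal intermediate filaments, and the 3 genes closest to the gene with the largest fold change; markers are named as a check. Alternatives covered the pseudocount, filter, scaling, variance trend, a block for the replicate number, the GC or length trend (natural spline, 4 degrees of freedom) and each library left out (the 8046 genes kept); exon GC content was added after the data were seen. BLAST 2.17.0 searched the transcript of greatest coding length of each of the 10 genes for exact copies of 50 or more bases. Other tools were scipy 1.17.1, pandas 2.3.3, numpy 2.4.6 and matplotlib 3.10.9 under Python 3.11.15.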

Additional observations from a re-analysis of the deposited data

Results flagged for a closer look

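The ratio of *Map2* to *Mapt* stood out because every RPL10A-STAMP library had *Map2* above *Mapt* and every RPL22-STAMP library had *Mapt* above *Map2*. How common such a turn is over all gene pairs was not computed. The log2 ratio of EPR + 0.01 differed by 0.83 between the variants (two-sided exact permutation test, p = 0.10, as low as 3 against 3 libraries can give). Leaving out any 1 library gave differences from 0.79 to 0.85. With a pseudocount of 0.001 the difference was 1.21, and with 0.1 it was 0.20. The exon GC content of the 2 genes also differs, at 43.6% for *Map2* and 53.7% for *Mapt*, and the gap between their limma log2 fold changes went from 0.81 to 0.42 with the trend of transcript GC content removed and to 0.37 with that of exon GC content removed.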

How the results depend on the processing

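The 1 call among the 10 genes, *Mapt*, was kept with pseudocounts of 0.001 and 0.1, quantile normalization and no variance trend. In the other 14 alternatives limma called 0 of the 10 genes, where 1 to 4 had an unadjusted p under 0.05, beside 20.1% to 30.8% of all tested genes: the wider filters (at least 3 libraries, no filter), no scaling, the replicate block, GC or length trend removed, GC trend with the replicate block, exon GC trend, and each library left out (0 to 0). *Mapt* kept its direction in all 18, from -0.75 to -0.11. Over all genes, 1149 calls became 754 and 569 with the wider filters, 663 with the GC or exon GC trend removed and 369 to 873 with a library left out. With the replicate block there were 603 calls, and 227 with the GC trend as well. After scaling, the deviations of libraries of the same number from their variant's mean had correlations of 0.044, 0.046 and -0.0055. Scaling removes library-wide effects first, so these values cannot show whether the numbers mark pairs. Replicate 1 had the lowest median EPR of each variant over genes edited in all 6 libraries, 0.0120 with RPL10A-STAMP and 0.00907 with RPL22-STAMP. Without scaling, 88.1% of calls were higher with RPL10A-STAMP, beside 59.6%.

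Signs turned for genes that never passed. Without scaling the log2 fold change was 0.083 for *Map1a*, 0.12 for *Map6*, 0.24 for *Stmn1*, 0.024 for *Stmn2* and 0.011 for *Nefm*. With the GC trend removed, with or without the replicate block, it was 0.14 for *Map1a*, 0.29 for *Map6*, -0.10 for *Dcx*, 0.081 for *Stmn1* and 0.012 for *Nefm*, and with the exon GC trend 0.17, 0.15 and -0.14 for *Map1a*, *Map6* and *Dcx* and 0.079 for *Nefm*. *Stmn1* was at 0.14 with the length trend removed and from -0.12 to 0.11 with a library left out. *Map1b*, *Map2* and *Nefl* kept their directions in all 18 alternatives, but sizes moved. Without scaling the 3 genes were at 0.57, 0.58 and 0.65, and with a pseudocount of 0.1 at 0.075, 0.080 and 0.13. *Map1b* was at 0.11 with the length trend removed (limma adjusted p = 0.589) and *Map2* at 0.13 with the exon GC trend removed. The mean log2 ratios of the 4 pairs kept their signs, but in 8 alternatives only, the pseudocounts and each library left out. With 5 libraries the sign-flip test cannot go below 0.0625.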
